A study of Danio rerio with 16 samples.

Results

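The cone opsins of the zebrafish retina were described in RNA from whole embryos injected with polystyrene particles and from their controls. The rows were chosen by gene symbol, and the 6 genes opn1sw1, opn1sw2, opn1mw1, opn1mw2, opn1lw1 and opn1lw2 of the 31388 listed genes make up the set. The pineal opsin exorh, sought by symbol as well, matched no row and is not analysed here. All 6 passed the filter on low counts, which kept 23623 genes. The files place opn1sw1 on chromosome 4, opn1sw2, opn1lw1 and opn1lw2 on chromosome 11 and opn1mw1 and opn1mw2 on chromosome 6, and the processing notes name the GRCz10 build.

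Wild-type embryos received 1 nl of red fluorescent polystyrene particles at 5 mg/ml, suspended in polyvinylpyrrolidone (PVP), into the yolk at 2 days post fertilization (dpf), and this group is called particle. Mock embryos were injected with PVP alone, and control embryos were not injected. RNA was taken at 3 days post injection (dpi), which is 5 dpf, and at 1 dpi, which is 3 dpf, from 10 embryos per treatment group. The particle and control groups have 3 libraries at each time, named A, B and C, and the mock groups have 2, named A and B. The labels call them biological replicas, and the 2 C libraries of particle embryos carry 70 nm in their file headers, while the labels give a diameter of 700 nm throughout.

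Opsins are light-sensing G protein-coupled receptors bound to a retinal chromophore, and each photoreceptor type of the retina is defined by the opsin in its outer segment. When light isomerises the chromophore, the opsin activates transducin, transducin activates a phosphodiesterase, cyclic GMP falls and the cation channels of the outer segment close. Zebrafish have cones for ultraviolet, blue, green and red light and carry tandem copies of the green and red opsin genes. Opsin genes are switched on late in photoreceptor differentiation, after transcription factors such as Otx2 and Crx have set the photoreceptor fate.

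Library totals ran from 8679739 to 19840148 counts. Levels are given as CPM, each gene's count as a rate on the library total scaled by the TMM method, which corrects for differences in composition between libraries. Transcript lengths were not used here, so CPM values of different opsins are not ranked against each other. Mock A of 3 dpi had the lowest TMM factor, 0.694, and on unscaled totals the opsin CPM of the mock groups of 3 dpi were 0.765 to 0.834 times those given here, against 0.988 to 1.07 times in every other group. Muscle actc1b (4860 to 38780 CPM), epidermal krt4 (3297 to 6928 CPM) and neuronal elavl3 (65.9 to 476.4 CPM) were present in all 16 libraries, as the whole-embryo label implies. In whole-embryo RNA, fewer photoreceptors and less opsin RNA per photoreceptor cannot be told apart. Both C libraries of 1 dpi stood apart from the 6 A and B libraries of that time. File headers call the C libraries combined and give A and B a shared series name, while the labels give all libraries of a time the same age. The C libraries are therefore named beside each result. For each comparison of the opsins, calls or fitted values are given with all libraries and from A and B alone, in the text or in a figure. Not every fitted value is printed.

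The ultraviolet cone opsin opn1sw1 was counted at 2402, 2663 and 2299 CPM in particle A, B and C at 3 dpi, 3225 and 2208 CPM in mock A and B, and 2279, 1999 and 2026 CPM in control A, B and C. The same gene was counted at 1800, 1905 and 312.6 CPM in particle A, B and C at 1 dpi, 2233 and 1626 CPM in mock A and B, and 2169, 2088 and 37.4 CPM in control A, B and C. At 3 dpi the 8 libraries lay between 1999 and 3225 CPM, while at 1 dpi both C libraries lay below the range of the other 6 and control C was the lowest of all 16. The group mean at 1 dpi was 1339 ± 891 CPM in particle embryos (SD, n = 3) and 1431 ± 1208 CPM in control embryos (SD, n = 3), so the spread within these groups was wide.

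The blue cone opsin opn1sw2 shared the low C libraries of 1 dpi with opn1sw1, but not the order of the scaled group means at 3 dpi. That order depended on the scaling. On unscaled totals the means of particle, mock and control embryos were 2453, 2096 and 2076 CPM for opn1sw1. For opn1sw2 they were 796.5, 580.4 and 665.9 CPM, so particle was highest for both. Scaled opn1sw2 stood at 772.4, 886.5 and 732.2 CPM in particle A, B and C at 3 dpi, 916.3 and 593.5 CPM in mock A and B, and 656.9, 680.3 and 679.0 CPM in control A, B and C. For 1 dpi the values were 559.8, 550.5 and 123.1 CPM in particle A, B and C, 706.8 and 551.5 CPM in mock A and B, and 669.1, 641.5 and 18.5 CPM in control A, B and C. The 3 control libraries of 3 dpi differed by less than those of any other group, with an SD of 13.2 CPM, and both C libraries of 1 dpi were again the lowest.

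The green cone opsins opn1mw1 and opn1mw2 lie side by side on chromosome 6, next to opn1mw3 and opn1mw4, in the RefSeq table. Near-identical tandem copies can share reads, and how the counting treated such reads is not given in the sources used here, so the split between copies is uncertain. No library held more than 30 counts of opn1mw3 or more than 6 counts of opn1mw4. The opn1mw1 gene gave 1104, 1390 and 1281 CPM in particle A, B and C at 3 dpi, 1182 and 867.9 CPM in mock A and B, and 1044, 962.3 and 1231 CPM in control A, B and C. Its values at 1 dpi were 787.5, 852.6 and 150.5 CPM in particle A, B and C, 1020 and 732.0 CPM in mock A and B, and 1076, 1020 and 11.8 CPM in control A, B and C. The control C value of opn1mw1 at 1 dpi was 88.5-fold below the mean of control A and B, more than for any other opsin.

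The second green opsin, opn1mw2, lay higher in all 3 dpi libraries than in any 1 dpi library of the same treatment. It gave 34.1, 39.9 and 106.4 CPM in particle A, B and C at 3 dpi, 36.4 and 99.2 CPM in mock A and B, and 14.99, 52.33 and 95.81 CPM in control A, B and C. At 1 dpi it gave 16.2, 17.0 and 7.69 CPM in particle A, B and C, 9.60 and 12.3 CPM in mock A and B, and 7.83, 11.7 and 1.74 CPM in control A, B and C. Relative to the mean its libraries were the most uneven of the 6 opsins at 3 dpi, with an SD of 40.2 CPM around a mean of 60.1 CPM in particle embryos (n = 3) and 40.5 CPM around 54.4 CPM in control embryos (n = 3).

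The red cone opsins opn1lw1 and opn1lw2 neighbour each other and opn1sw2 on chromosome 11 in the RefSeq table, and reads may likewise be shared between them. The opn1lw1 gene was counted at 121.4, 160.8 and 235.7 CPM in particle A, B and C at 3 dpi, 123.8 and 74.1 CPM in mock A and B, and 105.7, 115.5 and 221.7 CPM in control A, B and C. For 1 dpi its values were 128.7, 137.9 and 53.6 CPM in particle A, B and C, 169.3 and 128.1 CPM in mock A and B, and 142.4, 161.0 and 10.1 CPM in control A, B and C. Both C libraries of 3 dpi were therefore above all 6 A and B libraries of that time, whereas both C libraries of 1 dpi were below them. The opn1lw2 gene showed the same order, with 1048, 1456 and 1868 CPM in particle A, B and C at 3 dpi, 1509 and 1072 CPM in mock A and B, and 1196, 1075 and 1806 CPM in control A, B and C. Its values at 1 dpi were 1129, 1237 and 403.3 CPM in particle A, B and C, 1389 and 1100 CPM in mock A and B, and 1307, 1466 and 71.2 CPM in control A, B and C. The red opsins were the only 2 of the 6 with both C libraries of 3 dpi above all A and B libraries, an order found for 8.12% of all genes tested.

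**Figure D1:**
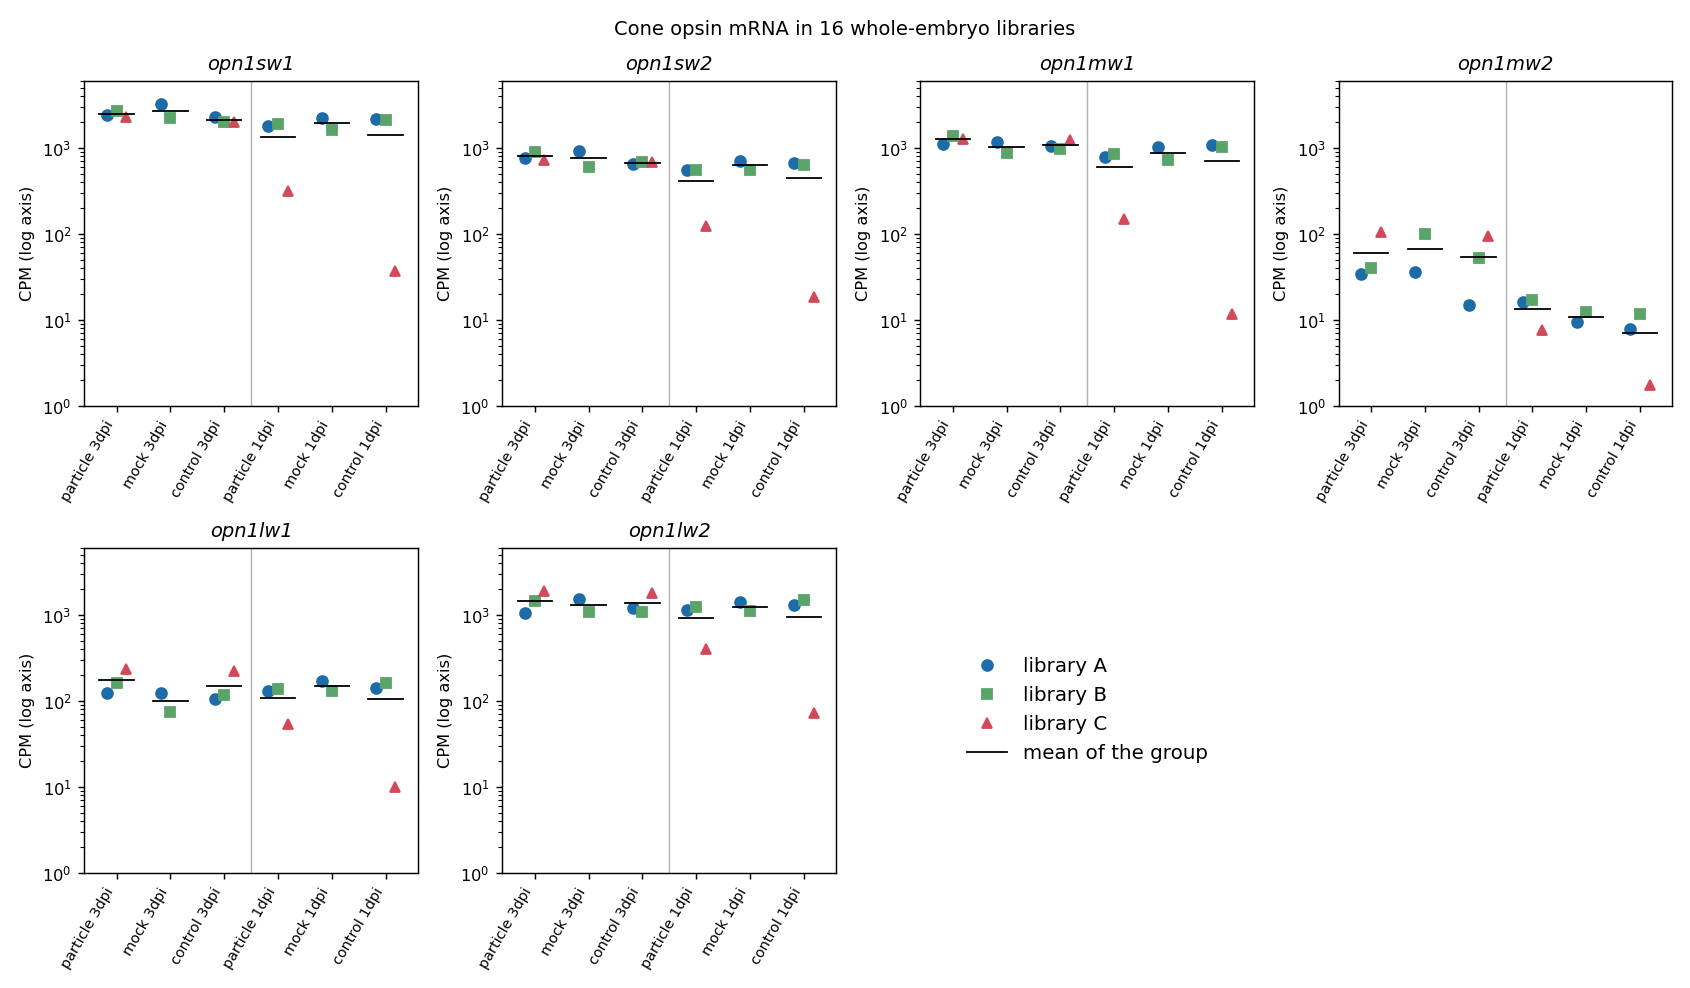
CPM on a log axis for each of the 6 cone opsins in each library, by group, with 3 dpi left of 1 dpi, letters A, B and C as circles, squares and triangles, and the group mean as a line. At 1 dpi both triangles (C libraries) lie below all 6 other symbols in every panel, with control C the lowest (37.4 CPM for opn1sw1), while at 3 dpi the triangles lie among or above the others.

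The 2 C libraries of 1 dpi were below all 6 A and B libraries of 1 dpi for 6 of 6 opsins, an order found for 23.7% of all genes tested. For 5 of 6 opsins, opn1sw1, opn1sw2, opn1mw1, opn1lw1 and opn1lw2, both C libraries lay below 0.5 times the lowest A or B library, against 2.62% of all genes. The distance was larger in control embryos than in particle embryos. Particle C was lower than the mean of particle A and B by 5.93-fold for opn1sw1, 5.45-fold for opn1mw1, 4.51-fold for opn1sw2, 2.93-fold for opn1lw2, 2.49-fold for opn1lw1 and 2.15-fold for opn1mw2. Control C was lower than the mean of control A and B by 88.5-fold for opn1mw1, 56.9-fold for opn1sw1, 35.5-fold for opn1sw2, 19.5-fold for opn1lw2, 15.1-fold for opn1lw1 and 5.62-fold for opn1mw2. In both treatments the short- and middle-wavelength opsins opn1sw1, opn1mw1 and opn1sw2 lay farthest below, and opn1mw2 lay least far below.

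A contrast of the C against the A and B libraries was added to the fit after these values had been seen, over particle and control embryos together, so its p-values describe an order already observed. It gave 5 of 6 opsins lower in C at 1 dpi in edgeR's quasi-likelihood test with Benjamini-Hochberg adjustment over all genes, against 14.9% of all genes called lower. The log2 difference was -3.92 ± 0.84 for opn1mw1 (SE, adjusted p = 0.00778), -3.86 ± 0.68 for opn1sw1 (adjusted p = 0.00247) and -3.37 ± 0.61 for opn1sw2 (adjusted p = 0.00291). It was -2.69 ± 0.54 for opn1lw2 and -2.38 ± 0.53 for opn1lw1, both past the threshold of 0.05, and -1.63 ± 0.60 for opn1mw2, which missed it (adjusted p = 0.0668). At 3 dpi the same contrast called 0 of 6 opsins, against 3.1% of all genes, with log2 differences from -0.11 to 1.52. The highest was that of opn1mw2, at 1.52 ± 0.47 (SE, edgeR unadjusted p = 0.0097, adjusted p = 0.121). The change of the contrast between times was called for 5 of 6 opsins, all higher at 3 dpi, against 3.16% of all genes, and opn1mw1 missed the threshold at 4.09 ± 1.01 (SE, edgeR adjusted p = 0.0545). Because the contrast takes 1 shift for both treatments, it averages over the unequal distances of particle C and control C.

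The first question of the design for the opsins was how their RNA differed between 3 and 1 dpi within each treatment. In the fit on all 16 libraries 0 of 6 opsins were called in particle embryos, against 2.03% of all genes, 0 of 6 in mock embryos, against 23.6%, and 0 of 6 in control embryos, against 1.36%. An unadjusted p under 0.05 was reached by 4375 of 23623 genes in particle, 8732 in mock and 4262 in control embryos. Of the 6 opsins only opn1mw2 reached it, in each of the 3 comparisons. Its log2 difference of 3 over 1 dpi was 2.15 ± 0.73 in particle embryos (SE, edgeR adjusted p = 0.143), 2.63 ± 0.92 in mock embryos (adjusted p = 0.0552) and 2.99 ± 0.77 in control embryos (adjusted p = 0.0786). DESeq2 called opn1mw2 in mock embryos (adjusted p = 0.0254, with 26.7% of all genes called) and in control embryos (adjusted p = 0.00684, with 5.5%). In particle embryos DESeq2 called 0 of 6, against 883 genes higher and 591 lower of 23623. With limma-voom 0 of 6 opsins were called in all 3 comparisons. It called 363 genes higher and 147 lower in particle, 2383 and 2580 in mock, and 255 and 43 in control embryos. All libraries of 3 dpi lay above all of 1 dpi for 4 of 6 opsins in particle embryos (opn1sw1, opn1sw2, opn1mw1 and opn1mw2), against 25.3% of genes without overlap in either direction. In mock embryos opn1mw2 lay higher without overlap and opn1lw1 lower, 2 of 6 against 68.3%, and in control embryos opn1mw2 lay higher, 1 of 6 against 23.5%. The only opsin without overlap in all 3 treatments was thus opn1mw2. How many of all genes lay without overlap in all 3 was not counted, so this is a description only.

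The A and B libraries alone gave a smaller spread and a different set of values. In mock embryos opn1mw2 was then higher at 3 dpi by 2.61 ± 0.64 on the log2 scale (SE, edgeR adjusted p = 0.0162), which was 1 of 6 opsins against 36% of all genes called in either direction. Particle and control embryos gave 0 of 6 called opsins from A and B, against 4.72% and 2.83% of all genes, with opn1mw2 at 1.15 ± 0.61 (adjusted p = 0.345) in particle embryos and 1.79 ± 0.65 (adjusted p = 0.213) in control embryos. At an unadjusted edgeR p under 0.05 particle embryos had 2 of 6 opsins, opn1mw1 (0.595 ± 0.206) and opn1sw2 (0.57 ± 0.201), against 4736 of 23212 genes. Mock embryos had 3 of 6, opn1mw2, opn1sw1 (0.482 ± 0.215) and opn1lw1 (-0.598 ± 0.227), against 10761 genes. Control embryos had 1 of 6, opn1mw2, against 3978 genes. The mock groups hold only A and B libraries, and the log2 difference of opn1mw2 with all libraries was 2.63. A term for the C libraries called the same opsin in mock embryos, against 38% of all genes, and so did leaving out both C libraries of 1 dpi, against 32.6%, both chosen after seeing the data. Without mock A of 3 dpi the log2 difference of opn1mw2 in mock embryos was 3.17, and without mock B of 3 dpi it was 1.72.

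The ratio of 3 to 1 dpi differed most between letters in control embryos. Control C of 3 dpi was 54.2-fold above control C of 1 dpi for opn1sw1 and 104-fold above it for opn1mw1, and particle C of 3 dpi was 7.35-fold above particle C of 1 dpi for opn1sw1. Over all opsins the same ratio ran from 22.1 to 104 in control C and from 4.39 to 13.8 in particle C. In the A and B libraries it ran from 0.578 to 1.63 for the cone opsins other than opn1mw2, on both sides of 1. For opn1mw2 it was 1.91 to 8.09 in A and B, above 1 for every letter and treatment. With control C of 1 dpi left out, the fitted log2 difference of control embryos was -0.02 for opn1sw1, 0.04 for opn1sw2, 0.04 for opn1mw1, -0.04 for opn1lw1 and -0.03 for opn1lw2. With all libraries it was 0.55, 0.60, 0.62, 0.50 and 0.52 for the same genes, so leaving out 1 library moved these 5 values to within 0.05 of 0. That fit kept control C of 3 dpi, the highest control library of that time for both red opsins. From A and B alone the values of control embryos were 0.014, 0.036, -0.055, -0.449 and -0.281 for the same genes, none of them called.

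**Figure D2:**
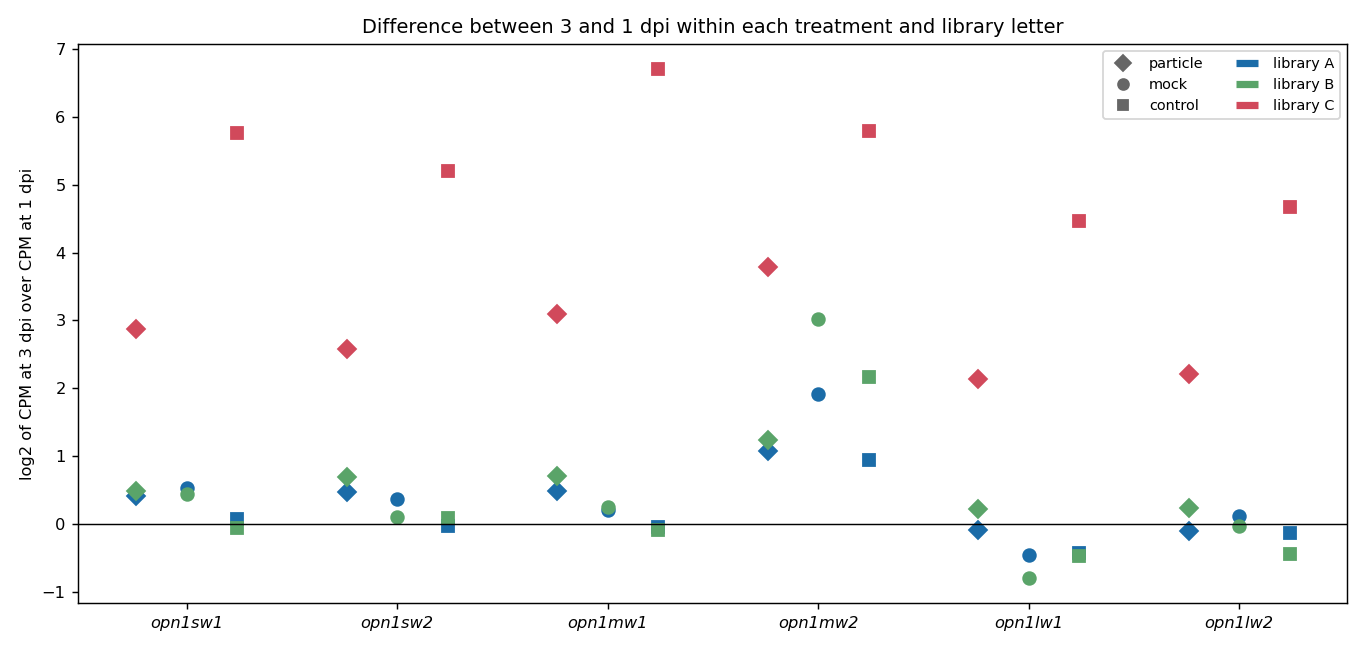
Log2 of the CPM at 3 dpi over the CPM at 1 dpi for the libraries of 1 letter and treatment, for each opsin, with colour for the letter and symbol for the treatment. The C points (red) lie at the top for every opsin, up to the 104-fold ratio of opn1mw1 in control embryos. The A and B points lie between -0.79 and 0.705 except for opn1mw2. Letters are only labels here and do not follow the same embryos.

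The particle was the agent under test, and 0 of 6 opsins were called for it at either time. For particle against mock the called share of all genes was 8.69% at 3 dpi and 0% at 1 dpi. For particle against control it was 0% at 3 dpi and 0.00423% at 1 dpi. No opsin reached an unadjusted p under 0.05 in these 4 comparisons by edgeR, limma-voom or DESeq2, none of which called any of them. By edgeR 6519 and 538 of 23623 genes reached it for particle against mock at 3 and 1 dpi. For particle against control 363 and 517 genes did. In the same order of comparisons DESeq2 had 6588, 594, 336 and 605 such genes and limma-voom had 5979, 792, 330 and 458. Between particle and mock at 3 dpi DESeq2 called 1809 genes higher and 1481 lower, and limma-voom 856 and 599. At 1 dpi DESeq2 called 4 genes higher for particle against mock and 7 for particle against control. Apart from these, both methods called 0 genes in the 4 comparisons. For particle against mock at 3 dpi the fitted log2 differences ran from -0.17 for opn1mw2 to 0.80 for opn1lw1, with SEs of 0.78 and 0.79. From A and B alone, with 24.5% of all genes called, that of opn1lw1 (0.52 ± 0.23, edgeR adjusted p = 0.114) had an unadjusted p under 0.05 and did not pass the adjustment. It was 1 of 6 opsins at that unadjusted p, against 9124 of 23212 genes.

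Particle against control at 3 dpi gave fitted log2 differences between 0.10 and 0.25 for the 6 opsins, with SEs between 0.69 and 0.94. All 3 particle libraries of 3 dpi lay above all 3 control libraries for opn1sw1 and opn1sw2, 2 of 6 opsins, against 5.74% of genes without overlap in either direction. In every other comparison of treatments all 6 opsins overlapped, where genes without overlap made up 43% for particle against mock and 39% for mock against control at 3 dpi, and 26.2%, 5.52% and 36.2% for particle against mock, particle against control and mock against control at 1 dpi. The means were 2455 ± 187 CPM in particle embryos and 2101 ± 154 CPM in control embryos for opn1sw1 (SD, n = 3 each), and 797.0 ± 80.1 CPM in particle embryos and 672.1 ± 13.2 CPM in control embryos for opn1sw2 (SD, n = 3 each). Neither difference passed the test (log2 0.22 ± 0.90 and 0.25 ± 0.82, SE, edgeR adjusted p = 1 for both), and A and B alone gave 0.23 ± 0.21 and 0.30 ± 0.20. The fit takes the variation of a gene from all 6 groups, so the SEs from all libraries also reflect the spread at 1 dpi. Without both C libraries of 1 dpi, a fit chosen after seeing the data, opn1sw1 gave 0.225 ± 0.167 and opn1sw2 0.246 ± 0.158, neither called. With SEs of these sizes, equal opsin RNA in particle and control embryos is not shown either.

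At 1 dpi the comparison of particle with control embryos went opposite ways by letter for 5 of the 6 opsins. Particle C was above control C by 8.36-fold for opn1sw1, 12.7-fold for opn1mw1, 6.66-fold for opn1sw2, 5.67-fold for opn1lw2, 5.34-fold for opn1lw1 and 4.43-fold for opn1mw2. In letters A and B particle was at 0.732 to 0.913 times control for 5 of the opsins, and at 2.07 and 1.45 times control for opn1mw2. The fitted log2 differences over all libraries were -0.24 to 0.98, with SEs from 0.69 to 0.94. With 1 C library in each treatment the difference between both C libraries has no replicate check.

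Mock against control called 0 of 6 opsins at 3 dpi, against 1.63% of all genes, and 0 of 6 at 1 dpi, against 0%. No opsin had an unadjusted p under 0.05 in edgeR, limma-voom or DESeq2. By edgeR 4956 of 23623 genes had one at 3 dpi and 2669 at 1 dpi. DESeq2 gave 4983 and 2865 such genes, and limma-voom 4637 and 3032. The fitted log2 differences at 3 dpi ran from -0.58 ± 0.79 for opn1lw1 (SE, edgeR adjusted p = 0.719), with 98.9 ± 35.2 CPM in mock embryos (SD, n = 2) and 147.6 ± 64.4 CPM in control embryos (SD, n = 3), to 0.37 ± 1.00 for opn1sw1 (adjusted p = 0.868). The interaction contrasts, which test whether the difference between times differed between treatments, called 0 of 6 opsins for particle against mock, particle against control and mock against control. By edgeR their shares of all genes were 0.00423%, 0% and 0% in the same order. Both limma-voom and DESeq2 called 0 of 6 as well. Of 23623 genes DESeq2 called 1020 higher and 699 lower, 0 and 1, and 670 and 855 in that order, while limma-voom called 0 in each. No opsin had an unadjusted p under 0.05 by edgeR, against 5656, 207 and 5508 of 23623 genes. From A and B alone 0 of 6 opsins were called in each, against 1477 genes higher and 1110 lower, 0 and 1, and 97 and 255, of 23212. There only opn1mw1 for particle against control (0.651 ± 0.29, SE, edgeR adjusted p = 0.965) had an unadjusted p under 0.05, where 1035 genes did. The comparisons of treatments within a time share their libraries and are not independent of each other.

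**Figure D3:**
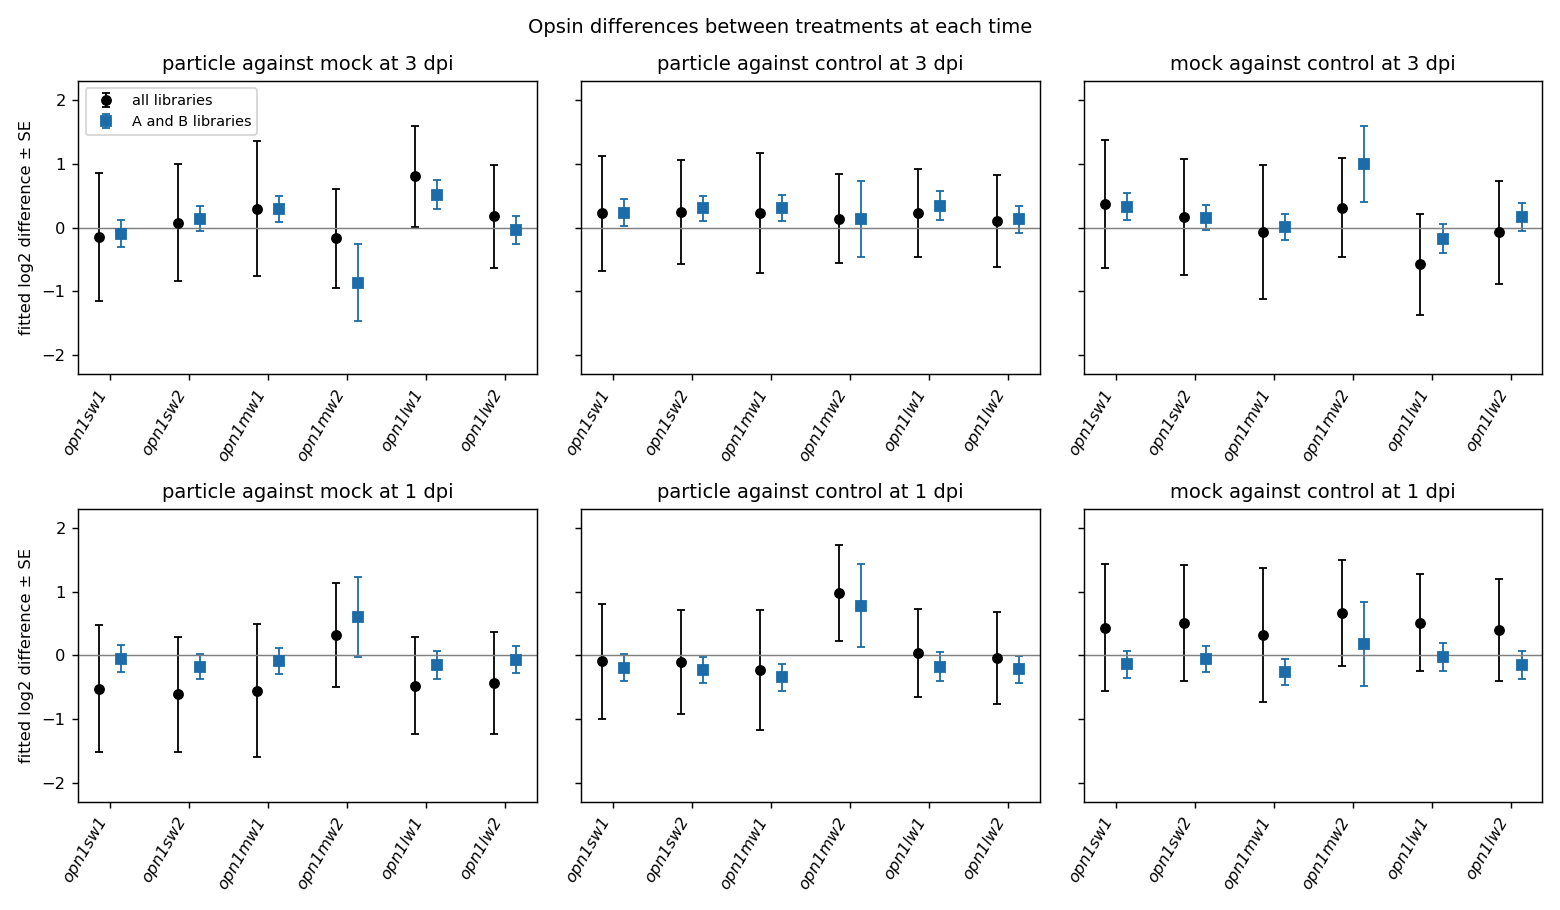
Fitted log2 differences between treatments with their SE for each opsin at 3 dpi (upper row) and 1 dpi (lower row), from all libraries (black circles) and from the A and B libraries alone (blue squares). No opsin passed an adjusted p of 0.05 in any of the 6 panels, and the bars from A and B alone are shorter for every opsin.

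The summed counts of the 6 cone opsins made up 0.435% to 0.670% of each library at 3 dpi. At 1 dpi they made up 0.117% in particle C and 0.0155% in control C, against 0.441% to 0.599% in the 6 A and B libraries. The make-up of these counts also differed. The red opsin opn1lw2 took 38.4% of the cone opsin counts in particle C and 47.2% in control C of 1 dpi, against 24.3% to 27.2% in A and B of that time. The ultraviolet opsin opn1sw1 took 29.8% in particle C and 24.8% in control C, against 38.8% to 40.7%, and opn1mw1 took 14.3% in particle C and 7.86% in control C, against 17.6% to 20.03%. The blue opsin opn1sw2 took 11.7% in particle C and 12.3% in control C, against 11.7% to 13.3%, so its share overlapped. At 3 dpi opn1lw2 took 28.6% in particle C and 29.8% in control C, against 19.1% to 22.6% in A and B, and opn1sw1 took 35.3% in particle C and 33.4% in control C, against 40.4% to 46.1%. The C libraries thus held a larger red and a smaller ultraviolet share at both times, with no overlap with A and B. These shares follow transcript length as well as abundance and are compared between libraries only.

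Within the green and red pairs the share of the minor copy varied between libraries. Of the counts of opn1mw1 and opn1mw2 together, opn1mw2 held 4.86% in particle C and 12.8% in control C of 1 dpi, against 0.722% to 2.01% in A and B of 1 dpi. At 3 dpi opn1mw2 held 7.66% in particle C and 7.22% in control C, against 1.42% to 10.3% in A and B. For the red pair opn1lw1 held 11.7% in particle C and 12.4% in control C of 1 dpi, against 9.82% to 10.9% in A and B, and 11.2% in particle C and 10.9% in control C at 3 dpi, against 6.46% to 10.4% in A and B. The share of the minor copy thus spanned 6.46% to 12.4% in the red pair and 0.722% to 12.8% in the green pair.

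**Figure D4:**
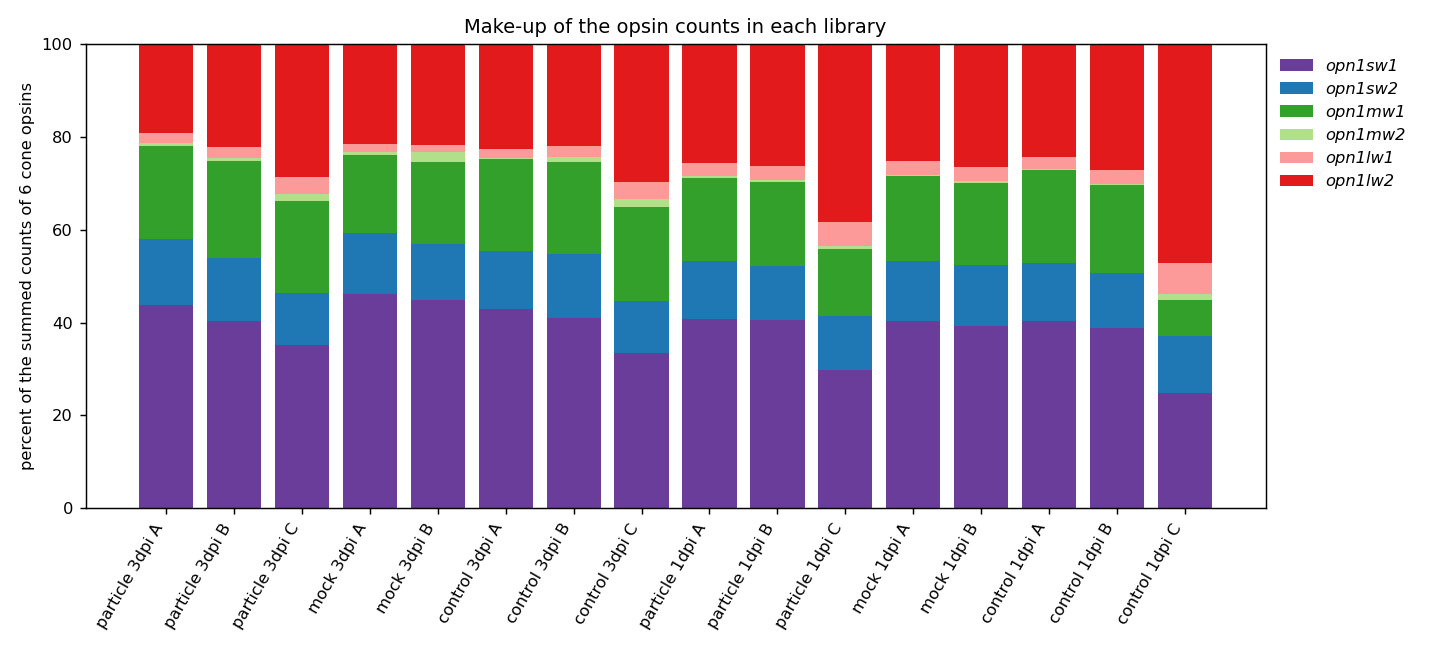
Stacked bars of the share of each opsin in the summed counts of the 6 cone opsins, 1 bar per library, with 3 dpi left of 1 dpi and particle, mock and control in that order. The red opn1lw2 segment is largest in control C of 1 dpi (47.2%), where the violet opn1sw1 segment is smallest (24.8%).

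The other genes of the photoreceptor were read from lists chosen with earlier results of these data known, and set against the 14.9% of all genes called lower and the 15.3% called higher in the C libraries of 1 dpi. Of 28 tested genes of cone phototransduction 21 were lower in C and 2 higher, with a median log2 difference of -1.73 against -0.01 for all genes. Among those with the smallest p, guca1c, an activator of photoreceptor guanylate cyclase, differed by -2.73 ± 0.26 (SE, edgeR adjusted p = 1.82e-05), gngt2a, a cone transducin gamma subunit, by -1.47 ± 0.17, grk1b, an opsin kinase, by -3.41 ± 0.49 and rcv1, a recoverin, by -1.28 ± 0.23. Of 22 genes of rod phototransduction 17 were lower and 1 higher, with a median of -1.46. The leading rod genes were cngb1a, a subunit of the rod cation channel, at -2.96 ± 0.32, the phosphodiesterase subunits pde6a at -1.73 ± 0.23 and pde6b at -1.995 ± 0.301, and the disc protein gene rom1a at -2.20 ± 0.34, each with an edgeR adjusted p under 0.05. Thus the C libraries of 1 dpi were lower in most listed transduction genes of cones and of rods as well as in the cone opsins.

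Genes of photoreceptor structure had 17 of 32 tested members lower and 2 higher, with a median of -0.86. They were led by cdhr1a, a photoreceptor cadherin (-1.47 ± 0.21), impg1a, a proteoglycan of the matrix around photoreceptors (-3.12 ± 0.42), syt5a (-3.38 ± 0.49) and fscn2a, a fascin (-2.54 ± 0.43). The visual cycle, which regenerates the chromophore, had 7 of 27 lower and 1 higher, with a median of -0.25, and irbp, the retinoid carrier between photoreceptors and pigment epithelium, differed by -3.06 ± 0.45 while rbp4, the retinol carrier of blood, differed by -2.61 ± 0.21. Of 27 other opsins, including melanopsins and opsins of brain and skin, 14 were lower and 1 higher, with opn4.1, a melanopsin, at -1.58 ± 0.20, opn3 at -1.56 ± 0.22 and opn4xb, another melanopsin, at -1.91 ± 0.28. The gene rgra is on the lists of both the visual cycle and the other opsins.

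The regulators of photoreceptor development, mostly transcription factors, went the other way. Of 27 tested regulators 21 were higher in the C libraries of 1 dpi and 1 was lower, with a median log2 difference of 0.75. The list was not limited to genes found only in photoreceptors, and in whole-embryo RNA the tissue behind these counts cannot be told. The leading genes were prdm1a (1.55 ± 0.14), otx5, a homeobox gene of pineal and retina (1.35 ± 0.13), nr2e3, a nuclear receptor of photoreceptors (1.64 ± 0.18) and otx2 (1.30 ± 0.16), with edgeR adjusted p-values of 1.32e-05, 1.82e-05, 4.99e-05 and 9.69e-05 in that order. The homeobox gene crx, named after its values were seen, stood at 341.6 CPM in particle C and 343.3 CPM in control C of 1 dpi. In A and B of that time it stood at 110.6 to 182.1 CPM, and the share of all genes with that order was not counted. Summed over the list, the regulators came to 1990 CPM in particle C and 2242 CPM in control C of 1 dpi, against 993.5 to 1379 CPM in A and B of 1 dpi, while at 3 dpi the sums were 1243 CPM in both C libraries and 948.5 to 1348 CPM in A and B. The cone opsins, by contrast, were 4.43- to 12.7-fold higher in particle C than in control C of 1 dpi.

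**Figure D5:**
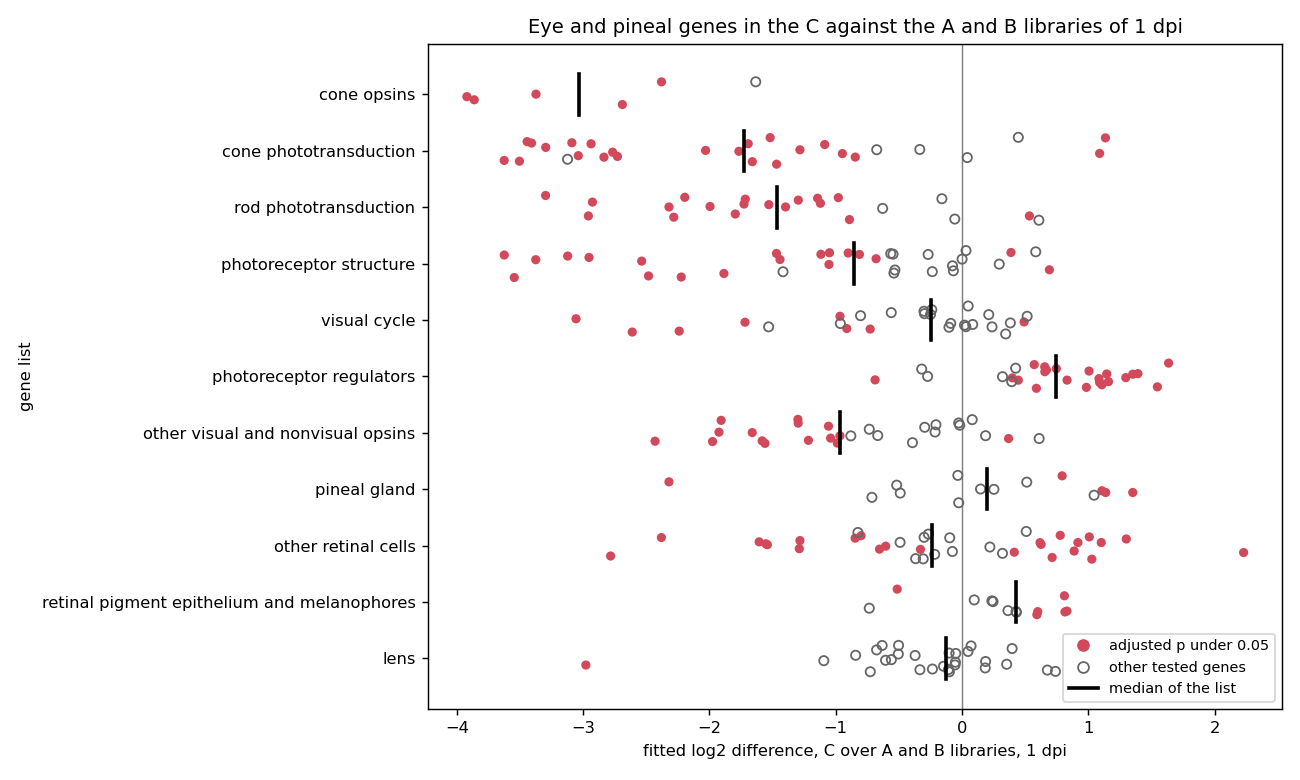
Fitted log2 difference of the C over the A and B libraries of 1 dpi for the tested genes of each list, 1 point per gene, filled where the edgeR adjusted p was under 0.05, with the list median as a bar. Opsins and transduction genes lie mostly left of 0 (median -3.03 for the 6 cone opsins and -1.73 for cone phototransduction), and the photoreceptor regulators mostly right of it (median 0.75).

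At 3 dpi 3.1% of all genes were called between C and A and B in either direction. Cone phototransduction had 2 higher and 1 lower of 28, rod phototransduction 2 higher and 0 lower of 22 (17 were lower at 1 dpi), photoreceptor structure 0 of 32 in either direction and the regulators 2 higher and 0 lower of 27. The cone, rod and regulator shares were thus above that of all genes, from 2 or 3 called genes each. The change of the contrast between times was called higher at 3 dpi for 14 of 28 genes of cone phototransduction, 15 of 22 of rod phototransduction and 13 of 32 of photoreceptor structure, while of 27 regulators 6 were called lower and 2 higher, against 3.16% of all genes higher and 1.6% lower. For particle against control embryos none of the lists had a called gene by edgeR, where 0% of all genes were called at 3 dpi and 0.00423% at 1 dpi, so nothing is read from it. For particle against mock embryos at 3 dpi, with 8.69% of all genes called, cone phototransduction had 0 of 28 called, rod phototransduction 1 of 22 (higher), photoreceptor structure 1 of 32 (higher) and the regulators 1 higher and 1 lower of 27. From A and B alone, with 24.5% of all genes called, the same comparison gave 4 higher and 3 lower of 28 for cone phototransduction, 5 higher and 3 lower of 22 for rod phototransduction, 6 higher and 2 lower of 32 for photoreceptor structure and 2 higher and 7 lower of 27 for the regulators.

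Markers of other embryo tissues were read in the C contrast of 1 dpi too. The log2 difference of muscle actc1b was -1.43 ± 0.22 and the embryonic globin genes hbbe1.1 and hbae1 were higher by 1.44 ± 0.20 and 1.42 ± 0.21. Of 15 such markers 2 were higher and 3 lower, counts near the 15.3% higher and 14.9% lower of all genes. The median log2 difference of these markers was -0.84, against -0.01 for all genes. Their summed level was 13560 and 15270 CPM in the C libraries of 1 dpi, against 21790 to 27620 CPM in A and B. Highly counted genes such as actc1b weigh most in that sum, so it does not describe each marker. The part of the markers in the opsin result was not tested.

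The genes with log2 CPM patterns most like each opsin over the 16 libraries were mostly photoreceptor genes. For opn1sw1 they were prph2a and prph2b, peripherins of the outer segment disc, with Pearson r of 0.997 and 0.996, and after the mean of each time was subtracted gnat2, the cone transducin alpha subunit, with 0.997. The nearest to opn1sw2 were prph2a (0.996) and prph2b (0.995), and to opn1mw1 prph2a (0.998) and gnb3b, a transducin beta subunit (0.997). For opn1lw2 they were prph2a (0.984) and prph2b (0.982), and for opn1lw1 cplx4a, a complexin of photoreceptor synapses (0.973), and gc3, a guanylate cyclase (0.960). Without both C libraries of 1 dpi, over 14 libraries, r of prph2a was 0.831 with opn1sw1, 0.907 with opn1mw1 and 0.619 with opn1lw2. Both C libraries of 1 dpi were also the lowest for gnat2, which stood at 119.4 CPM in particle C and 14.2 CPM in control C of 1 dpi, against 464.0 to 681.7 CPM in A and B of that time. Unlike opn1sw1, gnat2 was higher in every library of 3 dpi (863.5 to 1190 CPM) than in any of 1 dpi. The share of all genes with that order was not counted. Within treatments 23.5% (control) to 68.3% (mock) of all genes lay without overlap between times in either direction.

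The nearest to opn1mw2 were ccdc120 (0.915) and slc38a5a, an amino acid transporter (0.914). Without the C libraries of 1 dpi r with opn1mw2 was 0.912 for ccdc120 and 0.868 for slc38a5a over 14 libraries. After the mean of each time was subtracted, over all 16 libraries, it was lower, at 0.762 for ccdc120 and 0.757 for slc38a5a. Between opsins the 15 pairwise r values ran from 0.624 (opn1mw2 with opn1lw1) to 0.998 (opn1sw1 with opn1sw2), with a median of 0.945. Without the C libraries of 1 dpi they ran from -0.002 (opn1sw1 with opn1lw1) to 0.902 (opn1sw1 with opn1sw2), with a median of 0.402. These r values share libraries, depth and scaling between genes and are given as a description.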

How the data were processed

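Per the labels' protocols total RNA was isolated from snap-frozen embryos with TRIZOL. The submitters' processing notes name Bowtie2, SAMtools, DESeq and the GRCz10 build, with no order. The read counter, annotation release, use of strand and treatment of shared reads were not given in sources used here. Deposited columns carry the unit expected counts here because a size factor with decimals stands below the genes. The gene values are whole counts, so rounding changed none, and 2 lines per file that name no gene (a size factor and a blank) were left out. Every per-sample column was mapped by its title or header. The titles were followed where a header or label disagreed, as for particle B of 1 dpi, whose header names A, and control C of 1 dpi, whose characteristics read replica 1.

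Gene counts were fitted with edgeR 4.0.16 under R 4.3.3 (TMM, robust quasi-likelihood, means of the 6 groups), filterByExpr used 10 counts as its minimum and 15 as its smallest total, and p-values were adjusted over 23623 genes by Benjamini-Hochberg with a threshold of 0.05. The test was checked on simulated counts with capped variation between libraries and no shift of the C libraries. That check therefore does not show its power for the opsins. The SE of each edgeR value was taken as the absolute log2 difference divided by the square root of the quasi-likelihood F. Log2 CPM used a prior count of 2. Alternatives were RLE factors, DESeq2 1.42.0, limma 3.58.1 (voom), no filter, fewer libraries, a term for the replicate letter, A and B alone and each library left out. Where this left 1 library in a group, its variation was taken to equal that of the other groups. A term for the C libraries, its contrasts and a fit without both C libraries of 1 dpi were chosen after seeing the data. Chi-square per degree of freedom between libraries of a group was 6.02 to 98.4, so no library repeats another. Replicates are what the labels call biological, and p-values measure the spread between these libraries.

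For same-letter particle and control libraries the correlation of deviations from the group means was 0.571, 0.305 and 0.745 for A, B and C at 1 dpi and -0.093, 0.123 and 0.569 at 3 dpi. All 3 exceeded 0.1 at 1 dpi but not at 3 dpi. Particle B of 1 dpi correlated with control A at 0.310, no less than with control B, and particle A with control B at 0.224, so the values set C apart more than they tell A from B. No label ties a letter to a shared batch or clutch. The opsins and the 11 gene lists, with 300 entries, of which 245 matched by symbol, 29 by Entrez identifier and 26 not, were chosen with earlier results of these data known. The rule for named genes took all members, for each the 2 genes with the highest r and the 1 with the highest r after centring by time, with a mean of at least 5 CPM, and up to 4 genes per list with the smallest p. The RefSeq table of another build, GRCz12tu, was used only for names and for which genes neighbour each other. Results for 1 member of the opsin list and for 1 gene of like pattern are not reported here. No sequences are printed because the reference tables hold none.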

Additional observations from a re-analysis of the deposited data

How the results depend on the processing

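With all 16 libraries edgeR called 0 of 6 cone opsins in each of the 12 comparisons, and so did RLE factors, limma-voom, no filter and, for the treatment comparisons, only the libraries of the same time. By edgeR the share of all genes called ran from 0% to 23.6%, the highest for mock embryos between times. Shares under RLE factors, no filter, fewer libraries by time or group, a term for the letter and 1 library left out are not given here. The replicate block, a term for the letter, also called 0 opsins in each (opn1mw2 in mock embryos 2.52, adjusted p = 0.0808) and so changed no call. The count differed from 0 only between times. For mock embryos at 3 against 1 dpi it was 1 with DESeq2 and 1 with only the libraries of the groups compared, 1 with A and B alone, 1 with a term for the C libraries and 1 without both C libraries of 1 dpi (opn1mw2 each time). Of all genes 26.7% were called there with DESeq2 and 36% with A and B alone. With a term for the C libraries it was 38%, and 32.6% without both C libraries of 1 dpi. With such shares nothing is read from 1 call of 6 opsins. For control embryos the opsin count was 1 with DESeq2 (opn1mw2), against 5.5% of all genes. The cause of these differences between settings was not tested. Over the settings other than leaving out 1 library, the adjusted p of opn1mw2 in mock embryos ran from 0.00902 to 0.0882. Leaving out each library in turn gave counts of 0 to 0. Of 480 such log2 values 406 kept their direction, and 74 changed sign with neither value called. Of 684 values under other settings 603 kept their direction and side of the threshold, 75 changed sign with neither value called and 6 passed the threshold. In control embryos limma-voom gave opsin differences between times of 1.22 to 3.19, against 0.50 to 2.99 by edgeR. The term for C assumes 1 shift for both treatments.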

Other observations

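Lists for other retinal cells, pigment cells, lens and pineal gland were read in the C against the A and B libraries of 1 dpi. The pigment cell list joins retinal pigment epithelium and melanophores. In whole-embryo RNA, counts of these genes are not limited to the eye, so their tissue cannot be told. Values are fitted log2 differences from edgeR's quasi-likelihood test with Benjamini-Hochberg adjustment, where 15.3% of all genes were higher and 14.9% lower. Of 36 tested markers of other retinal cells 12 were higher in C and 12 lower, with a median of -0.24. The retinal progenitor factor atoh7, needed for ganglion cells, was higher by 2.23 ± 0.21 (SE, adjusted p = 1.82e-05). It stood at 17.6 CPM in particle C and 20.4 CPM in control C. The 6 A and B libraries held 3.01 to 4.71 CPM, an order whose share of all genes was not counted. The amacrine and horizontal cell factor tfap2b (1.103 ± 0.121) and lhx1a (1.01 ± 0.13) were higher too, whereas nyx, a gene of bipolar cell synapses, was lower at -2.38 ± 0.26. Pigment cell genes had 5 of 13 higher and 1 lower, with oca2 at 0.83 ± 0.14 and pmelb at 0.81 ± 0.19. Lens genes had 0 of 28 higher and 1 lower, crybgx at -2.98 ± 0.45, below the shares of all genes in both directions. The pineal list shares otx5 with the photoreceptor regulators, gngt1 with rod phototransduction and parapinopsinb with the other opsins. Its tested genes had 4 of 14 higher and 1 lower. Among them were lhx4 at 1.14 ± 0.14 and aanat2, the melatonin-synthesis enzyme of the pineal gland, at 1.11 ± 0.27. The C contrast was added after seeing the data.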
